A study of Mus musculus with 12 samples.

Results

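This account concerns the adult haemoglobin genes and Alas2 in transplanted mouse islets. The 6 genes were the rows of the deposited expression table named Beta-s, Hbb-b1, Hbb-b2, Hba-a1, Hba-a2 and Alas2, out of 23234 gene symbols. They were chosen by symbol, and each was compared library by library over the groups. RNA sequencing had been carried out on total RNA of C57BL/6 mouse pancreatic islets, in 12 libraries of 3 groups. Grafts recovered 120 days and grafts recovered 60 days after islets had been placed in the inguinal subcutaneous white fat of the groin gave 4 libraries each, and isolated islets that had not been transplanted gave 4. The labels name the same strain for all 3 groups and no further treatment or genotype. They do not give the age of the animals, and they do not say whether a library was made from 1 animal or from a pool. The study compared islet gene expression before and after transplantation.

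Haemoglobin carries oxygen in red blood cells and is built from alpha and beta globin chains, each holding a haem group. The mature mammalian red cell has lost its nucleus, but young red cells, the reticulocytes, still carry globin mRNA for a short time after they enter the blood, so that RNA taken from a tissue with its blood contains globin transcripts. Alas2 encodes the erythroid 5-aminolevulinate synthase, which makes the first intermediate of haem, and it is expressed in developing red cells, whereas its relative Alas1 serves other tissues. Islets are densely vascularised in the pancreas, lose their blood supply on isolation and are supplied by vessels of the new site after transplantation.

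Values are the authors' FPKM, a measure of fragments per length of transcript and per size of library. Summed over genes they came to between 396769 and 786366 per library, and the read depth was unknown. The islet hormone gene Iapp was at 34717 to 45612 FPKM in day 120 grafts, 29125 to 48065 FPKM in day 60 grafts and 16932 to 26174 FPKM in isolated islets, so that all 12 libraries held islet RNA. Ins2 was listed at 0 in 10 of 12 libraries, which can be a failed estimate, and no comparison here uses it alone. Replicate 1 of the isolated islets was the closest of its group to the grafts on the first principal component, and replicate 1 of day 60 was separated from its group on the second. The replicates numbered 1 also stood apart in the haemoglobin genes, so the results are given with and without them. Separate animals behind the numbered libraries are not stated in the labels, so p-values cover the spread from library to library, part of which may be technical. In bulk RNA, fewer cells of a type and less RNA per cell cannot be told apart, nor does the table separate blood held in vessels from any other source of globin RNA.

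Haemoglobin RNA was more abundant in every graft than in every isolated islet library. The 5 haemoglobin genes together came to 21800, 2836, 3757 and 1933 FPKM in day 120 grafts 1 to 4. They came to 28732, 2738, 2444 and 1847 FPKM in day 60 grafts 1 to 4, and to 44.7, 16.3, 17.2 and 18.8 FPKM in isolated islets 1 to 4. The graft numbered 1 was the highest of its group at both times, at 5.8 times the next day 120 graft and 10.5 times the next day 60 graft. Isolated islet replicate 1 was also the highest of its group. The lowest graft still exceeded the highest isolated islet library 41.3 times. As a share of all FPKM in the library, the 5 genes held 4.65%, 0.614%, 0.807% and 0.402% in day 120 grafts, 4.96%, 0.64%, 0.528% and 0.465% in day 60 grafts, and between 0.00239% and 0.0104% in isolated islets. These shares are not on a common base. Ins2 adds 293150 and 316265 FPKM to the totals of isolated islets 3 and 4 and 0 to the others, and Ins1 is listed at 0 in day 60 replicate 4. The mean share was 1.62% ± 2.03 at day 120, 1.65% ± 2.21 at day 60 and 0.00465% ± 0.00386 in isolated islets (SD, n = 4 each). Without replicate 1 of each group it was 0.608% ± 0.203, 0.545% ± 0.0884 and 0.00273% ± 0.000489 (SD, n = 3 each). A sum over chosen genes was given no test.

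**Figure D1:**
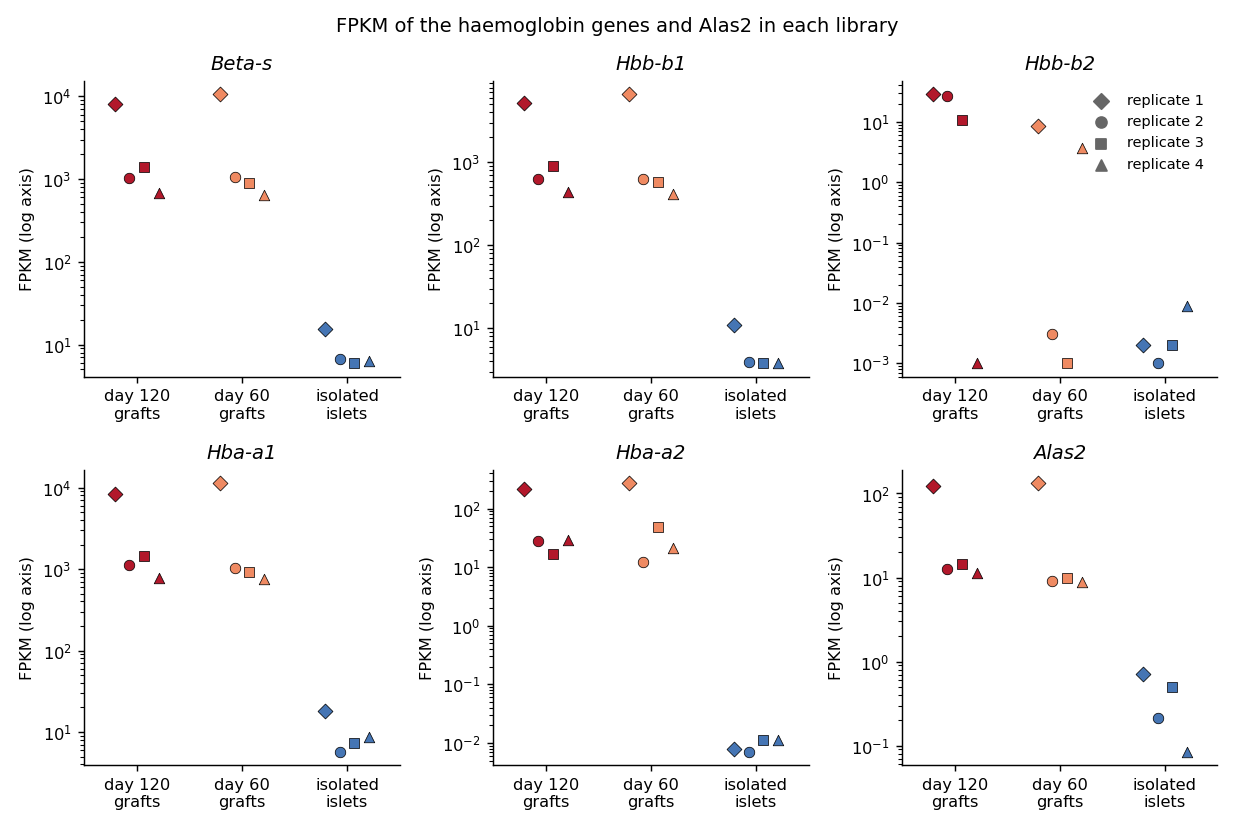
FPKM on a log axis for each of the 6 genes, with 1 point per library, day 120 grafts on the left, day 60 grafts in the middle and isolated islets on the right; the marker shape gives the replicate number. For Beta-s the 8 grafts sit between 644 and 10524 FPKM, all above the isolated islets at 5.95 to 15.5, and the diamonds of replicate 1 are the highest points of both graft groups in every panel.

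The sequences upstream of the genes are shown because they hold the letters that erythroid and general transcription factors are known to recognise, and because the alpha globin copies are identical there. RefSeq (GRCm38.p6) listed an upstream sequence for 4 of the 6 genes, with Beta-s under its current symbol Hbb-bs. Hbb-b1 and Hbb-b2 had none under those symbols. Each line gives the 250 bases before the transcription start on the gene's own strand, 5′ to 3′, with capitals for matches on either strand. The letters searched for GATA factors were AGATAA with its variants AGATAG, then TGATAA, and last TGATAG. The others were CACCC for factors such as Klf1, then CCAAT of the box of that name, and TATAA of the TATA box. Beta-s lies on the minus strand at chr7:103827929-103828178, Hba-a1 on the plus strand at chr11:32283422-32283671 and Alas2 on the plus strand at chrX:150547167-150547416.
Beta-s (Hbb-bs): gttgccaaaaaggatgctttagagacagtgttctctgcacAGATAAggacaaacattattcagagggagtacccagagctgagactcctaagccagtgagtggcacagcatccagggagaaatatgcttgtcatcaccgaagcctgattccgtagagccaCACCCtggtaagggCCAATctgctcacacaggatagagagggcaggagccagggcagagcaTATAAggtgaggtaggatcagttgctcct
Hba-a1: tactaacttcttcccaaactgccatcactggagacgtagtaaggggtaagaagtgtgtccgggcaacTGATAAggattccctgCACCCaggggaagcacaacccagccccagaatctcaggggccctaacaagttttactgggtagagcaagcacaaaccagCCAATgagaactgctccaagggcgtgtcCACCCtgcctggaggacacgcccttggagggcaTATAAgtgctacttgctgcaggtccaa
Alas2: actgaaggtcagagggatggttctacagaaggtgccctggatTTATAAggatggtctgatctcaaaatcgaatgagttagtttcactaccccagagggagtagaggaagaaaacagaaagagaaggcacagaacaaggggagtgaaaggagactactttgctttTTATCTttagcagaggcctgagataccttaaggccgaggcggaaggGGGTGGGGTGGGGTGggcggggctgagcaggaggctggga
In Beta-s the GATA letters lay at -210 to -205 from the start, CACCC at -90 to -86, CCAAT at -76 to -72 and TATAA at -29 to -25. In Hba-a1 they lay at -183 to -178, CACCC at -167 to -163 and again at -60 to -56, CCAAT at -88 to -84 and TATAA at -27 to -23. The Hba-a2 sequence at chr11:32296242-32296491 matched that of Hba-a1 over 247 aligned bases with 0 differences. In Alas2 the GATA letters lay on the opposite strand at -86 to -81, followed by 3 copies of CACCC, also on the opposite strand, between -40 and -26. Its TATAA letters, found on both strands in overlap, were far upstream, and CCAAT was not among these bases. Of 32851 upstream sequences of the same length, 26.5% held the GATA letters, 52.0% CACCC, 33.8% CCAAT and 22.8% TATAA, and 1.08% held all 4 as Beta-s, Hba-a1 and Hba-a2 did. A match describes the letters and is not a measured binding site.

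The globin genes come in near-identical copies, which limits what a single row means. The coding sequences of Hba-a1 and Hba-a2 in GENCODE M21 are 429 bases long and differ at 1 base, at position 381, with 99.8% identity. C57BL/6 mice carry the beta globin haplotype with the genes Hbb-bs and Hbb-bt, whose coding sequences of 444 bases differ at 1 base, at position 417. The stretches around these bases are shown with the differing base in capitals, as positions 361 to 401 for alpha and 397 to 437 for beta globin.
Hba-a1: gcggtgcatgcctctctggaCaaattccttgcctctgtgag
Hba-a2: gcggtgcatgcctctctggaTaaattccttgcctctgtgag
Hbb-bs: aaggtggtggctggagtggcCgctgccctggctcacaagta
Hbb-bt: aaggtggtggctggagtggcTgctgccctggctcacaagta
A read that does not cover the differing base, or the untranslated ends, cannot be given to 1 copy, and how the authors' counting split such reads was not given in the sources used here. The row Beta-s corresponds to Hbb-bs by its listed synonym. The rows Hbb-b1 and Hbb-b2 are named as in the table and were not matched to a copy. The alpha sum and the beta sum rest less on that split than the single rows do.

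Among the beta chain genes, Beta-s was at 7978, 1041, 1394 and 687 FPKM in day 120 grafts 1 to 4. It was at 10524, 1058, 894 and 644 FPKM in day 60 grafts, and at 15.5, 6.66, 5.95 and 6.37 FPKM in isolated islets. All 8 grafts lay above all 4 isolated islet libraries, and the grafts numbered 1 were far above the other 3 of their group. Group means were 2775 ± 3481 FPKM at day 120, 3280 ± 4832 FPKM at day 60 and 8.61 ± 4.575 FPKM in isolated islets (SD, n = 4 each). Differences were tested with limma on log2(FPKM + 1), a scale that understates the change of low genes, with Benjamini-Hochberg adjustment over 13433 genes and a threshold of 0.05. Beta-s was higher than in isolated islets by 7.55 log2 at day 120 (SE 0.885, limma adjusted p = 0.000314) and by 7.47 log2 at day 60 (SE 0.885, limma adjusted p = 0.0002197). Without both grafts numbered 1 these differences were 6.80 and 6.57 log2, and both still passed the threshold.

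Hbb-b1, the second beta chain row, moved with Beta-s. It was at 5190, 623, 906 and 443 FPKM in day 120 grafts 1 to 4, at 6596, 632, 588 and 422 FPKM in day 60 grafts, and at 10.9, 3.98, 3.86 and 3.79 FPKM in isolated islets. The graft and isolated islet values did not overlap, and the lowest graft was 38.7 times the highest isolated islet library. The difference from isolated islets was 7.45 log2 at day 120 (SE 0.8965, limma adjusted p = 0.0004098) and 7.37 log2 at day 60 (SE 0.8965, limma adjusted p = 0.0002719). Leaving out both grafts numbered 1 gave 6.69 and 6.47 log2 at day 120 and day 60. Beta-s exceeded Hbb-b1 by a factor of 1.54 to 1.67 in day 120 grafts, 1.52 to 1.68 in day 60 grafts and 1.42 to 1.68 in isolated islets, so the ratio of the rows was alike where the level differed by orders of magnitude.

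Hbb-b2 behaved unlike the other rows. It was at 28.4, 26.9, 10.6 and 0.001 FPKM in day 120 grafts 1 to 4, at 8.58, 0.003, 0.001 and 3.66 FPKM in day 60 grafts, and between 0.001 and 0.009 FPKM in isolated islets. The graft values overlapped those of isolated islets at both times, and values near 0 stood beside values above 8 FPKM within a group. The difference from isolated islets was 3.30 log2 at day 120 (SE 1.017, limma adjusted p = 0.03087) and did not pass at day 60, at 1.37 log2 (SE 1.017, limma adjusted p = 0.2951). The day 120 call was lost when any of 6 single libraries was left out, at limma adjusted p between 0.06333 and 0.07728. These were isolated islet replicates 2, 3 and 4 and day 120 replicates 1, 2 and 3.

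Among the alpha chain genes, Hba-a1 held the highest single value of the 6 genes, in day 60 replicate 1. It was at 8392, 1117, 1429 and 775 FPKM in day 120 grafts 1 to 4, at 11332, 1035, 914 and 755 FPKM in day 60 grafts, and at 18.4, 5.69, 7.41 and 8.62 FPKM in isolated islets. All grafts lay above all isolated islet libraries, with the lowest graft 41.1 times the highest of them. Group means were 2928 ± 3652 FPKM, 3509 ± 5217 FPKM and 10.02 ± 5.689 FPKM in that order (SD, n = 4 each). The difference from isolated islets was 7.47 log2 at day 120 (SE 0.8854, limma adjusted p = 0.0003434) and 7.38 log2 at day 60 (SE 0.8854, limma adjusted p = 0.0002351). With both grafts numbered 1 left out it was 6.73 and 6.47 log2.

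Hba-a2 was listed far below its near-identical copy. It was at 212, 28.2, 16.9 and 29.0 FPKM in day 120 grafts 1 to 4 and at 271, 12.4, 48.0 and 21.4 FPKM in day 60 grafts. In isolated islets it was listed at 0.007 to 0.011 FPKM, and no fold is given against such values. Its share of the alpha sum was 1.17% to 3.61% in day 120 grafts, 1.19% to 4.99% in day 60 grafts and 0.0436% to 0.148% in isolated islets. On the log2(FPKM + 1) scale the difference from isolated islets was 5.40 at day 120 (SE 0.8936, limma adjusted p = 0.003062) and 5.47 at day 60 (SE 0.8936, limma adjusted p = 0.001252). It was 4.63 and 4.60 without both grafts numbered 1, and both passed. Given the 1 differing coding base, the division between Hba-a1 and Hba-a2 is uncertain.

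Alas2, the only one of the 6 that encodes an enzyme, followed the globin rows at a lower level. It was at 123, 12.6, 14.6 and 11.2 FPKM in day 120 grafts 1 to 4, at 133, 8.98, 9.85 and 8.80 FPKM in day 60 grafts, and at 0.707, 0.215, 0.498 and 0.084 FPKM in isolated islets. The groups did not overlap, and the grafts numbered 1 stood at 8.45 times the next day 120 graft and 13.5 times the next day 60 graft. The difference from isolated islets was 4.14 log2 at day 120 (SE 0.8901, limma adjusted p = 0.008135) and 3.84 log2 at day 60 (SE 0.8901, limma adjusted p = 0.006042). Without both grafts numbered 1 it was 3.34 and 2.91 log2, and both passed.

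**Figure D2:**
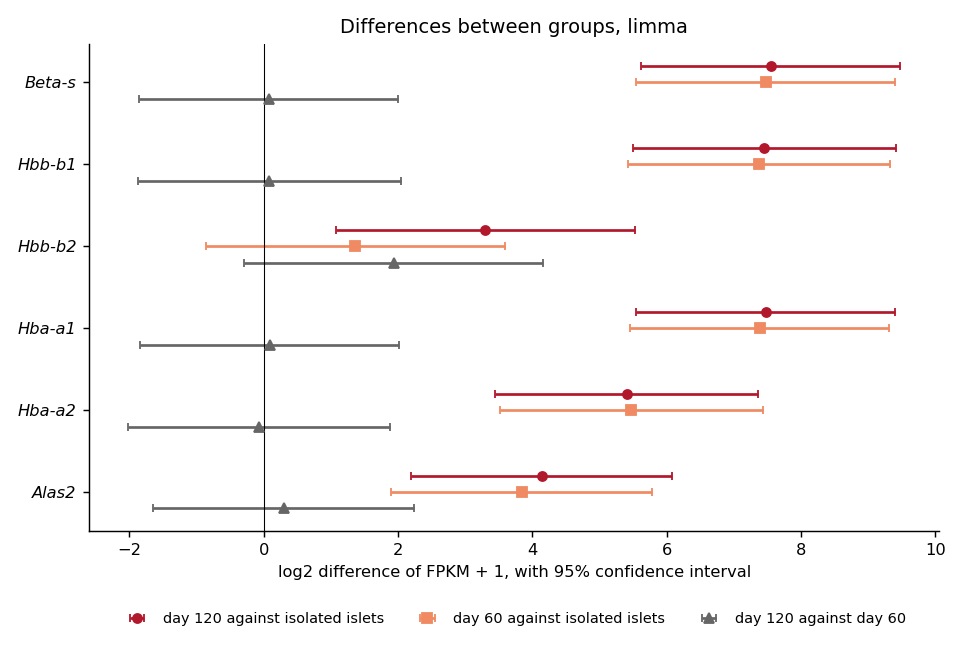
Difference in log2(FPKM + 1) between groups for each of the 6 genes, from limma, with the 95% confidence interval as the bar. Day 120 and day 60 against isolated islets lie between 3.84 and 7.55 for all genes but Hbb-b2, while the intervals of day 120 against day 60 all include 0.

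At day 120, 6 of the 6 genes were called higher than in isolated islets, where 24.3% of all tested genes were called higher. At day 60, 5 of the 6 were called higher, where 31.3% of all tested genes were. None was called lower, against 7.03% of tested genes at day 120 and 12.3% at day 60. Graft and isolated islet values did not overlap for 5 of the 6 at each time, against 28.3% of tested genes that were higher without overlap at day 120 and 22.0% at day 60. Only Beta-s, Hbb-b1 and Hba-a1 were at 1 FPKM or more in every isolated islet library. The other 3 genes entered the test through the grafts alone, which favours a difference, so nothing is read from these counts. By size of the log2 difference, Beta-s, Hba-a1 and Hbb-b1 ranked 2, 3 and 4 among the 13433 genes at day 120 and 1, 2 and 3 at day 60. Hba-a2 ranked 7 at day 120 and 22 at day 60, Alas2 ranked 29 at day 120 and 88 at day 60, and Hbb-b2 ranked 58 at day 120 and 1317 at day 60. The median difference over all tested genes was 0.302 at day 120 and 0.265 at day 60, and other scalings moved it by up to -0.298. Both comparisons share the same isolated islets.

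Between day 120 and day 60 grafts no member passed the test. In FPKM, the SD between grafts of either group exceeded the difference of the group means for all members but Hbb-b2. For Hbb-b2, with means of 16.47 and 3.061 FPKM at day 120 and day 60, the day 120 SD of 13.6 exceeded it. The day 60 SD of 4.064 did not. The difference of day 120 from day 60 was 0.08 log2 for Beta-s (95% confidence interval -1.85 to 2.01), 0.08 for Hbb-b1 (-1.88 to 2.04) and 0.09 for Hba-a1 (-1.84 to 2.02). It was -0.07 for Hba-a2 (-2.02 to 1.89), 0.30 for Alas2 (-1.65 to 2.24) and 1.93 for Hbb-b2 (-0.29 to 4.16). By limma 0 of the 6 were called, and 0 had an unadjusted p under 0.05, where 0.0149% of all tested genes were called in either direction and 10.1% had an unadjusted p under 0.05. Differences inside these intervals were not detectable between the 2 times, and the test does not show that the times are alike.

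Same-numbered day 120 and day 60 grafts deviated together from their group means over all tested genes, at correlations of 0.18 to 0.442, and number 1 held the highest haemoglobin sum at both times. The haemoglobin sum at day 120 was 0.759, 1.04, 1.54 and 1.05 times that of the day 60 graft of the same number, for numbers 1 to 4. For Beta-s the ratios were 0.758, 0.984, 1.56 and 1.07, and for Hba-a1 they were 0.741, 1.08, 1.56 and 1.03. For Alas2 they were 0.93, 1.41, 1.48 and 1.27, so that 3 pairs were higher at day 120 and 1 was lower. The Hba-a2 ratios spread more widely, at 0.781, 2.27, 0.352 and 1.35. Hbb-b2 did not keep to the pairs: it was at 28.4 and 8.58 FPKM at day 120 and day 60 in number 1, at 26.9 and 0.003 in number 2, at 10.6 and 0.001 in number 3, and at 0.001 and 3.66 in number 4. In a fit on the 8 grafts alone with the number as a block, chosen after the data had been seen, the interval of day 120 minus day 60 narrowed to -0.56 to 0.71 log2 for Beta-s, -0.55 to 0.73 for Hba-a1 and -0.10 to 0.69 for Alas2, and no member passed.

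**Figure D3:**
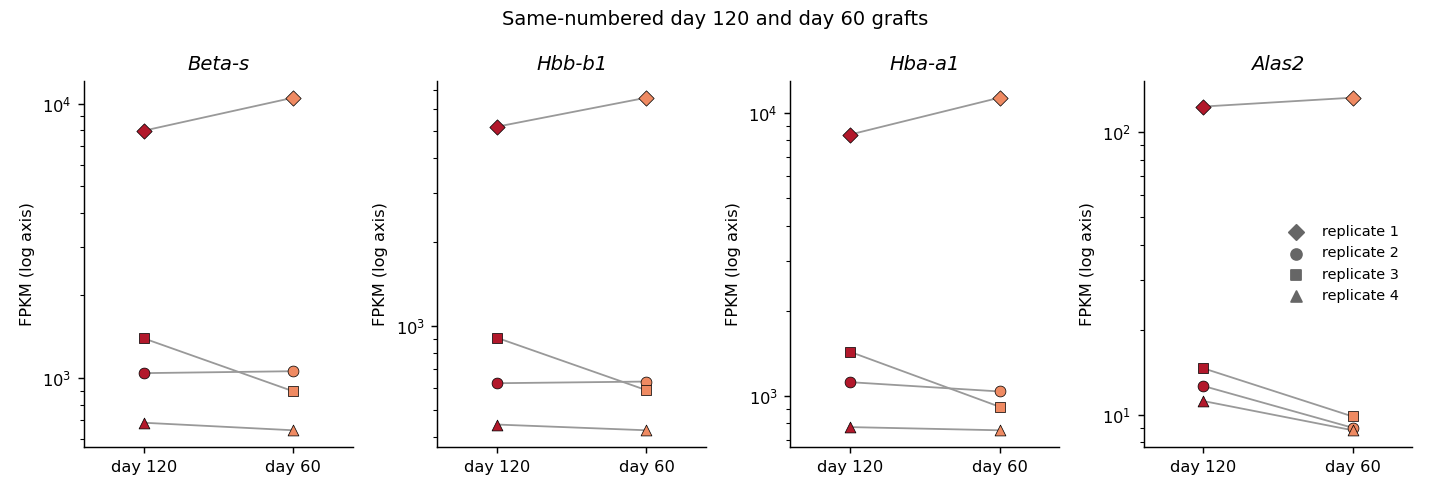
FPKM on a log axis of Beta-s, Hbb-b1, Hba-a1 and Alas2 in the 8 grafts, day 120 on the left and day 60 on the right, with a line joining grafts of the same replicate number. The pair numbered 1 lies far above the other 3 pairs in every panel, and for Beta-s the day 120 values are 0.758 to 1.56 times those of the same-numbered day 60 grafts.

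The proportions of alpha to beta chain RNA overlapped between the groups, whose levels did not. The summed alpha chain FPKM were 0.652, 0.677, 0.626 and 0.712 times the summed beta chain FPKM in day 120 grafts 1 to 4. They were 0.677, 0.62, 0.649 and 0.725 times in day 60 grafts, and 0.696, 0.535, 0.757 and 0.848 times in isolated islets. The 3 ranges overlap, and the isolated islets, with the lowest levels, had the widest. Per 1000 FPKM of haemoglobin there were 5.66, 4.45, 3.88 and 5.78 FPKM of Alas2 in day 120 grafts, 4.62, 3.28, 4.03 and 4.77 in day 60 grafts, and 15.8, 13.2, 28.9 and 4.47 in isolated islets. The grafts numbered 1 thus had Alas2 in the same proportion as the other grafts. In isolated islets both quantities were low, Alas2 being under 1 FPKM in each library, and 1 of the 4 lay within the range of the grafts.

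**Figure D4:**
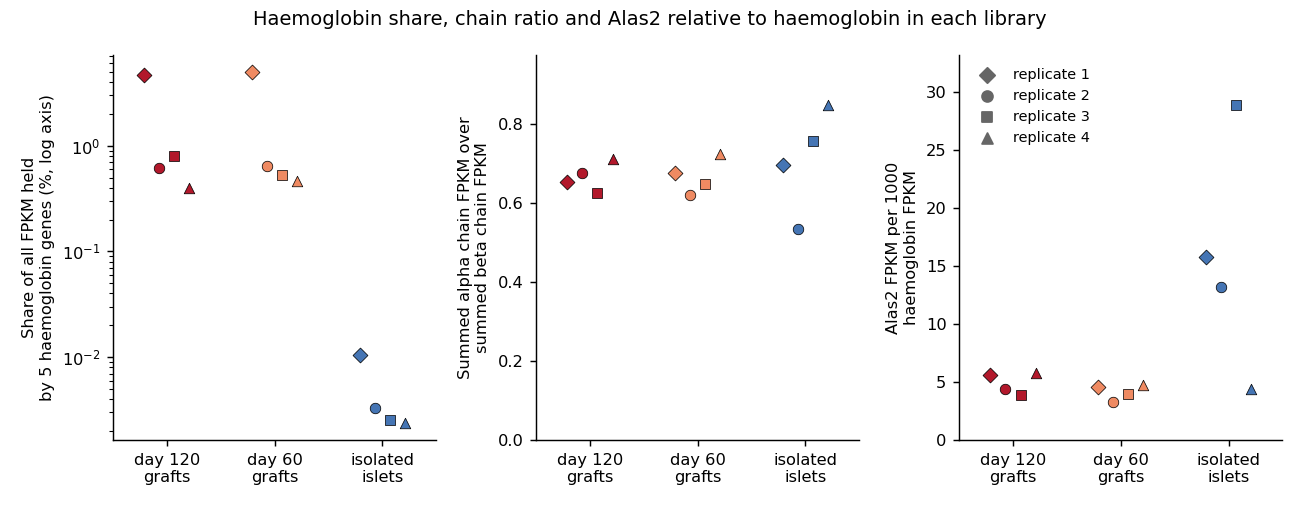
Share of all FPKM held by the 5 haemoglobin genes in percent on a log axis, the ratio of summed alpha to summed beta chain FPKM, and Alas2 FPKM per 1000 haemoglobin FPKM, with 1 point per library and the marker shape giving the replicate number. The share is 0.402% or more in every graft and 0.0104% or less in every isolated islet library, while the alpha to beta ratio of all groups lies between 0.535 and 0.848.

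Other globin genes were nearly silent. The embryonic genes Hbb-y and Hbb-bh2 were listed at 0 in all 12 libraries, and Hbb-bh1 was above 0 in 1 library only, day 60 replicate 1, at 0.052 FPKM. Hba-x, the embryonic zeta globin, was listed at 0 in all grafts and reached 0.368 FPKM in isolated islets. The theta-like genes Hbq1a and Hbq1b were at 0.182 to 1.17 FPKM in day 120 grafts, 0.307 to 0.988 FPKM in day 60 grafts and 0 to 0.182 FPKM in isolated islets. None of the 6 genes of this list passed the filter on low values.

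Defining genes of the red cell membrane and of erythroid precursors were at low levels in the grafts. Slc4a1, the anion exchanger band 3 of the red cell membrane, was at 2.69 FPKM in day 120 replicate 1 and 0.068 to 0.147 in the other day 120 grafts. In day 60 replicate 1 it was at 1.59 FPKM, with 0 to 0.304 in the other 3 of that group, and it was listed at 0 in all isolated islets. It was highest in the grafts numbered 1, as were the globins, but other genes of the same list were not. Rhd, a Rhesus protein of the red cell membrane, was at 4.78 FPKM in day 120 replicate 1 and 5.89 to 7.14 FPKM in the other day 120 grafts, and at 2.85 FPKM in day 60 replicate 1 and 5.91 to 7.19 FPKM in the other day 60 grafts, so that replicate 1 was the lowest graft at both times. Replicate 1 of Xk and Spnb1 was also below the highest other graft at both times, at 0.858 and 0.271 times for Xk and 0.867 and 0.364 times for Spnb1 at day 120 and day 60. Gata1, a transcription factor of erythroid precursors, did not exceed 0.292 FPKM, and Klf1, an erythroid factor known to bind CACCC, did not exceed 0.678 FPKM in any library. Of 10 erythroid transcription factor genes, 4 were tested, of which 1 was higher and 1 lower at each time, and 3 were higher at day 120 and 2 at day 60 without both grafts numbered 1. The one higher was Lmo2, which endothelium expresses as well. Of 16 red cell membrane and skeleton genes in the table, 7 were tested, of which 2 were higher at day 120 and 3 higher and 1 lower at day 60, with median differences of 0.543 and 0.188. Without both grafts numbered 1, 4 were higher at day 120 and 3 at day 60. Those called higher with all libraries were Rhd and Aqp1 at both times and Gypc at day 60. Among all tested genes 24.3% were higher and 7.03% lower at day 120, and 31.3% were higher and 12.3% lower at day 60. Those shares are from the fit with all libraries. Nothing is read from the counts of the membrane and transcription factor genes, with or without the grafts numbered 1. Aqp1, a water channel also made by vessel endothelium, had mean levels of 24.0 ± 13.3, 43.1 ± 34.7 and 2.57 ± 0.684 FPKM (SD, n = 4 each) in day 120 grafts, day 60 grafts and isolated islets.

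Of 24 genes of red cell enzymes, reticulocytes and globin handling, 18 were tested, of which 5 were higher and 2 lower at each time, with median differences of 0.436 at day 120 and 0.241 at day 60. These shares are near those of all tested genes, of which 24.3% were higher and 7.03% lower at day 120 and 31.3% were higher and 12.3% lower at day 60. With both grafts numbered 1 left out, 7 were higher at day 120 and 8 at day 60. The number of all genes called differs in that fit as well. At day 60 it called 6096 of 13178 tested genes in either direction, against 5865 of 13433 with all libraries. Nothing is read from the change in the list counts. Bpgm, which makes the red cell regulator 2,3-bisphosphoglycerate, was named after its values were seen. It stood at 54.0 FPKM in day 120 replicate 1 and 50.8 FPKM in day 60 replicate 1, against 11.8 to 19.9 FPKM in the other grafts and 8.95 to 11.4 FPKM in isolated islets. Cat and Blvrb, catalase and biliverdin reductase B, were higher at both times, but both are widely expressed and were highest in day 60 replicate 1. Tfrc, the transferrin receptor through which iron enters cells and which is shed by maturing reticulocytes, fell by 1.54 log2 at each time (SE 0.2616, limma adjusted p = 0.002865 at day 120 and 0.001198 at day 60).

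Most genes of haem synthesis that cells other than red cells use as well did not pass the test. Of 13 such genes, all tested, 4 were higher and 0 lower at each time, where 24.3% of all tested genes were higher at day 120 and 31.3% at day 60. Their median differences were 0.278 at day 120 and 0.412 at day 60, against 0.302 and 0.265 over all tested genes. The 4 included Urod and Uros, which act in the middle of the pathway, Ppox near its end and the mitochondrial iron importer Slc25a37. Uros was at 8.06 to 11.5 FPKM in day 120 grafts, 8.20 to 12.6 FPKM in day 60 grafts and 8.68, 0.902, 1.07 and 0.817 FPKM in isolated islets 1 to 4, so that isolated islet replicate 1 lay among the grafts. Its difference was 1.86 log2 at day 120 (SE 0.4309, limma adjusted p = 0.009712) and 2.01 log2 at day 60 (SE 0.4309, limma adjusted p = 0.003701). Urod averaged 24.9 ± 2.53 FPKM at day 120, 25.4 ± 5.98 FPKM at day 60 and 12.5 ± 4.93 FPKM in isolated islets (SD, n = 4 each). The list sum in replicate 1 was 0.997 times the next highest graft at day 120 and 1.25 times at day 60, so their sum did not share the excess of the grafts numbered 1. Alas1 was at 14.3, 9.80, 11.1 and 11.7 FPKM in day 120 grafts, at 50.3, 8.19, 19.7 and 12.3 FPKM in day 60 grafts and at 8.49 to 10.8 FPKM in isolated islets, and passed at neither time (0.27 log2, limma adjusted p = 0.612, and 0.86 log2, limma adjusted p = 0.09338).

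Markers of other blood cells differed in part between the same libraries. Of 16 platelet genes, 9 were tested, of which 3 were higher at day 120 and 2 at day 60, with 0 lower. Among all tested genes 24.3% were higher at day 120 and 31.3% at day 60, so nothing is read from these platelet counts. Without both grafts numbered 1, 5 platelet genes were higher at each time. The share of all genes higher in that fit is not given here, and nothing is read from that count either. The list sum was 35.4 to 289 FPKM in day 120 grafts, 27.5 to 339 FPKM in day 60 grafts and 6.44 to 8.66 FPKM in isolated islets, with replicate 1 at 6.12 and 3.07 times the next graft at day 120 and day 60. Pf4, platelet factor 4, was at 65.3, 31.3, 24.7 and 19.2 FPKM in day 120 grafts 1 to 4, at 277, 38.7, 91.5 and 12.5 FPKM in day 60 grafts and at 1.497 FPKM or less in isolated islets. In day 60 grafts 1 and 3 this single gene made up most of the list sum, at 277 of 339 and 91.5 of 110 FPKM. Ppbp, the other abundant platelet chemokine, was at 67.3 FPKM in day 120 replicate 1 and 15.2 FPKM in day 60 replicate 1, while the other 6 grafts lay between 0.833 and 1.81 FPKM and isolated islets at 0.087 FPKM or less. Ppbp did not pass at either time. Within the list, day 60 replicate 1 ran from 0.2 times the highest other graft of its group for Gp1bb to 12.6 times for Ppbp. Of 16 platelet genes, 4 were at 0 in all isolated islets.

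Of 18 neutrophil genes, 8 were tested, of which 6 were higher and 1 lower at each time, also without both grafts numbered 1. Several of those higher, S100a8, S100a9, Retnlg and Csf3r among them, were under 1 FPKM in every isolated islet library. They entered the test through the grafts alone, which favours a difference, so nothing is read from these neutrophil counts. Among all tested genes 24.3% were higher and 7.03% lower at day 120, and 31.3% were higher and 12.3% lower at day 60. S100a8, a calcium-binding protein abundant in neutrophils, was at 219, 59.6, 26.3 and 3.88 FPKM in day 120 grafts 1 to 4 and at 106, 23.2, 19.3 and 9.94 FPKM in day 60 grafts, and was listed at 0 in all isolated islets. It was higher by 5.19 log2 at day 120 (SE 0.9842, limma adjusted p = 0.005439) and by 4.78 log2 at day 60 (SE 0.9842, limma adjusted p = 0.003702). The neutrophil sum was 34.9 to 509 FPKM in day 120 grafts, 37.5 to 295 FPKM in day 60 grafts and 18.8 to 58.6 FPKM in isolated islets, where 8 of the 18 genes were at 0. Most of the isolated islet sum was Lcn2, the gene called lower, at 46.6 of 58.6 FPKM in replicate 1 and 12.4 of 18.8 FPKM in replicate 4. The overlap of the sums thus rests on that gene. Replicate 1 was at 2.71 and 3.43 times the next graft at day 120 and day 60. The part of platelets and neutrophils in the haemoglobin difference was not tested.

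Replicate 1 was not the highest graft for the summed T cell genes at either time, and for the summed B cell and endothelial genes it was the highest at 1 time each. Of 9 T cell genes, 7 were tested, of which 2 were higher at day 120 and 6 at day 60. Cd3g, Cd4 and Cd2 among them were under 1 FPKM in every isolated islet library, so nothing is read from these T cell counts. The summed T cell genes of replicate 1 were 0.934 and 0.527 times the highest other graft at day 120 and day 60. The summed B cell genes were 3.09 times at day 120 and 0.102 times at day 60. At day 60 the highest graft was replicate 2 for both lists, at 104 FPKM of T cell and 114 FPKM of B cell genes. Day 60 replicate 1, at 54.8 and 11.7 FPKM, lay above replicate 3, at 18.6 and 3.24 FPKM, and replicate 4, at 24.4 and 5.61 FPKM. Of 14 endothelial genes, all tested, 4 were higher at day 120 and 5 at day 60, shares near the 24.3% and 31.3% of all tested genes that were higher. Their sum was 153 to 367 FPKM in day 120 grafts, 165 to 408 FPKM in day 60 grafts and 177 to 241 FPKM in isolated islets. Pecam1, the endothelial adhesion molecule CD31, was at 43.4, 11.51, 16.2 and 32.6 FPKM in day 120 grafts, at 66.2, 24.7, 17.6 and 28.9 FPKM in day 60 grafts and at 12.6 to 23.8 FPKM in isolated islets, and passed at neither time. Its highest values were in the grafts numbered 1, but the endothelial sum of replicate 1 was only 0.962 and 1.2 times the highest other graft at day 120 and day 60.

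**Figure D5:**
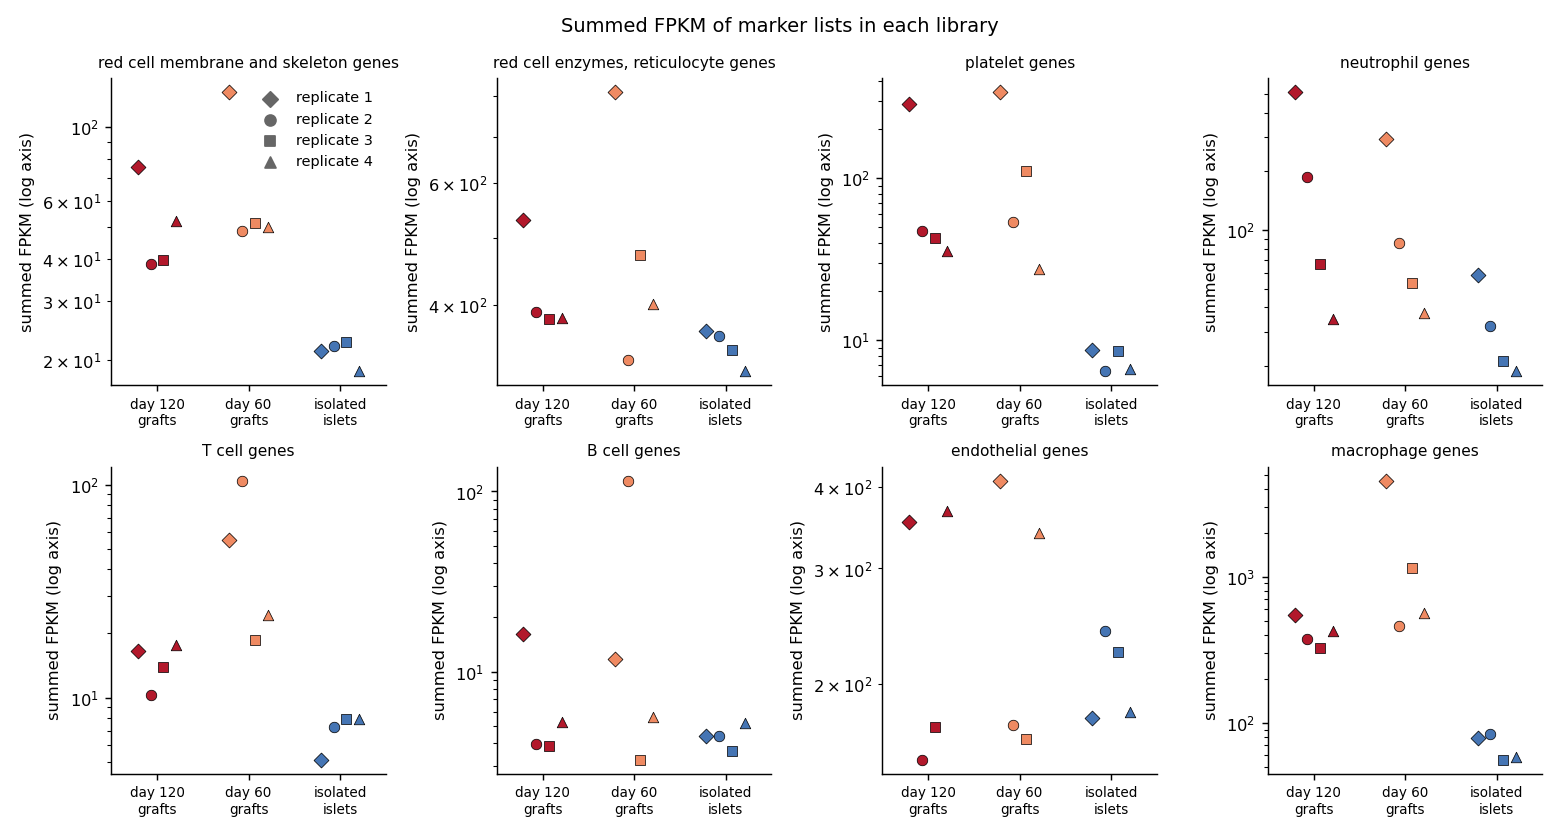
Summed FPKM on a log axis of 8 marker lists in each library, day 120 grafts on the left, day 60 grafts in the middle and isolated islets on the right, with the marker shape giving the replicate number. The platelet sum of every graft, at 27.5 FPKM or more, lies above that of every isolated islet library, at 8.66 or less, whereas the endothelial sums of the 3 groups overlap. In day 60 replicate 1 the gene Pf4 alone holds 277 of the 339 FPKM of the platelet sum.

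Haemoglobin released from red cells is bound by haptoglobin and taken up by macrophages through Cd163, and its haem is broken down by Hmox1. Hp, the haptoglobin gene, which liver and fat express, was at 257, 32.6, 102 and 39.2 FPKM in day 120 grafts 1 to 4, at 963, 54.3, 306 and 31.7 FPKM in day 60 grafts and at 0.5 to 1.53 FPKM in isolated islets. It was higher by 5.39 log2 at day 120 (SE 0.9701, limma adjusted p = 0.00425) and by 6.36 log2 at day 60 (SE 0.9701, limma adjusted p = 0.000959). Cd163 was at 0.806 to 1.98 FPKM in day 120 grafts, 0.948 to 14.5 FPKM in day 60 grafts and 0.125 to 0.283 FPKM in isolated islets, and passed at day 60 (1.81 log2, limma adjusted p = 0.01176) and not at day 120 (0.97 log2, limma adjusted p = 0.1443). Whether the times differed was tested for Cd163 and did not pass (-0.84 log2, limma adjusted p = 0.5212). Hmox1 was at 5.69 to 8.24 FPKM in day 120 grafts, 8.77 to 67.0 FPKM in day 60 grafts and 7.19 to 22.0 FPKM in isolated islets, and passed at neither time. Of 18 genes of haem and haemoglobin disposal and of iron handling, 15 were tested, of which 4 were higher and 1 lower at day 120 and 8 higher and 1 lower at day 60. With both grafts numbered 1 left out, 5 were higher and 2 lower at day 120 and 6 higher and 1 lower at day 60. Among all tested genes, with all libraries, 24.3% were higher and 7.03% lower at day 120. At day 60, 31.3% were higher and 12.3% lower. The shares without both grafts numbered 1 are not given here, so nothing is read from the list counts without them. Macrophage genes, 11 of 14 tested, were higher for 7 at day 120 and 11 at day 60, or for 11 at each time without both grafts numbered 1. Several of them, Mrc1 and Cd163 among them, were under 1 FPKM in every isolated islet library and entered the test through the grafts alone. That favours a difference, so nothing is read from these macrophage counts. The macrophage sum ran from 326 to 548, from 460 to 4524 and from 55.8 to 84.4 FPKM in day 120 grafts, day 60 grafts and isolated islets. Day 60 replicate 1 held the highest macrophage sum and the highest haemoglobin sum, and the part of the one in the other was not tested.

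The genes most like Beta-s were found by Pearson's correlation of log2(FPKM + 1), as a description in which the libraries share their group and depth. Over the 12 libraries Hbb-b1 came to 1.0, Hba-a1 to 0.999, Hba-a2 to 0.974, Alas2 to 0.964 and Hbb-b2 to 0.68. Outside the 6, the highest were Abcg2, an efflux transporter, and Ubac1, a ubiquitin ligase subunit, both at 0.974, then Card9 and Mtrf1 at 0.97, the chemokine gene Ccl8 at 0.961, Apod at 0.956, and Hp and S100a8 at 0.955. Abcg2 was at 6.87, 4.62, 4.50 and 5.10 FPKM in day 120 grafts, at 10.7, 6.25, 4.45 and 3.68 FPKM in day 60 grafts and at 0.838 to 1.93 FPKM in isolated islets, a far smaller range than that of Beta-s. The gap in level between grafts and isolated islets enters this correlation.

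With the mean of each group taken out, the correlation describes the spread within groups. Hbb-b1 then came to 0.999, Hba-a1 to 0.993, Alas2 to 0.971, Hba-a2 to 0.864 and Hbb-b2 to 0.606. Over the 10 libraries other than the grafts numbered 1, Hbb-b1 was at 0.99, Hba-a1 at 0.934 and Alas2 at 0.722, whereas Hba-a2 was at -0.262 and Hbb-b2 at 0.207. The likeness of Hba-a2 to Beta-s within groups thus rested on those 2 libraries, and that of Hbb-b1 and Hba-a1 did not. How far reads shared between the beta chain rows enter the likeness of Hbb-b1 to Beta-s was not tested. Outside the 6, the highest were Plek, the platelet and leukocyte protein pleckstrin, at 0.964, the integrin gene Itgad at 0.957, Ubash3b at 0.953 and P2ry12, an ADP receptor of platelets and microglia, at 0.946. Hspb2, Klra2, Casp4 and Il1b followed at 0.923 to 0.942. P2ry12 was at 8.90, 3.54, 3.94 and 3.59 FPKM in day 120 grafts 1 to 4, at 11.1, 4.47, 4.34 and 4.29 FPKM in day 60 grafts and at 2.64, 1.00, 0.853 and 0.889 FPKM in isolated islets, so that replicate 1 was the highest library of all 3 groups, as it was for Beta-s. In those 10 libraries Plek was at 0.691, P2ry12 at 0.808 and Hspb2 at 0.383.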

How the data were processed

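RNA of 12 libraries, 4 each of day 120 grafts, day 60 grafts and isolated islets, was measured. Per the labels' protocols, 10 ng of total RNA went into a low-input cDNA kit and libraries were amplified for 15 cycles of PCR, so fragments are not independent molecules. The deposited FPKM values were made by the authors with TopHat2, Cufflinks 2.1.1 and mouse build mm9, per the submitters' processing notes. Annotation, strand and the handling of reads shared between gene copies are not stated there. No counts were given and depth is unknown, so no counting interval is given.

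Of 23234 symbols, 13433 with at least 1 FPKM in at least 4 libraries were tested and 9801 were not. limma 3.58.1 (R 4.3.3, statmod 1.5.0) was fitted to log2(FPKM + 1) of all 12 libraries, with terms for group alone, trended prior variances and robust estimation. The two-sided p-values were adjusted by Benjamini and Hochberg's method, at a threshold of 0.05, and the fit was tested on simulated data. The 6 genes and the 13 lists were chosen with earlier results of these data known. All 6 genes are named, with up to 5 genes of smallest p in each list, defining markers whatever their result, and the 8 genes most correlated with Beta-s in each of 2 ways. List genes are described by counts and medians, with no set test, and some defining markers are not reported here.

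Replicate numbers paired the grafts: same-numbered day 120 and day 60 libraries deviated together, at correlations of 0.402, 0.442, 0.18 and 0.23 for numbers 1 to 4, and each graft matched its own number best. Grafts and isolated islets of the same number did not deviate together, at correlations of -0.0784 to 0.0199. Alternatives were a pseudocount of 0.1, no filter, 3 scalings, 2 groups only, a replicate block and libraries left out. Upstream sequences are RefSeq's (GRCm38.p6) and coding sequences GENCODE's (M21). Neither is the authors' build, and no coordinate was taken from one build to another.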

Additional observations from a re-analysis of the deposited data

Results flagged for a closer look

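In groups of 4 libraries, 21 values were checked for a library whose gap to the nearest other took up nearly the whole range of its group, past the 95% critical value of Dixon's test, and 16 stood apart. Chance gives about 1 in 20, but these rows share libraries and partly reads, so they are not 16 separate observations.

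Replicate 1 was the library that stood apart in both graft groups. At day 120 it held 7978 FPKM of Beta-s, 5190 of Hbb-b1, 8392 of Hba-a1, 212 of Hba-a2 and 123 of Alas2, and its haemoglobin share was 4.65%. At day 60 it held 10524 FPKM of Beta-s, 6596 of Hbb-b1, 11332 of Hba-a1, 271 of Hba-a2 and 133 of Alas2, and its haemoglobin share was 4.96%. In isolated islets replicate 1 stood apart as well, with 15.5 FPKM of Beta-s, 10.9 FPKM of Hbb-b1 and a share of 0.0104%.

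Hbb-b2 in isolated islet replicate 4, at 0.009 FPKM against 0.001 to 0.002 in the other 3, stood apart only among values near 0.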

How the results depend on the processing

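The higher levels of Beta-s, Hbb-b1, Hba-a1, Hba-a2 and Alas2 in grafts kept their direction and passed the threshold under every alternative run. Beta-s ran from 6.80 to 7.98 log2 at day 120 and from 6.57 to 7.91 at day 60, and Alas2 from 3.34 to 5.79 and from 2.91 to 5.47. The count of members called against isolated islets stayed at 5 for day 60 and was 5 or 6 for day 120. It stayed at 0 for day 120 against day 60. Fits with a replicate block changed no member's call, with Beta-s at 7.55 log2 for day 120 against isolated islets under the block.

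Hbb-b2 at day 120 against isolated islets ran from 2.78 to 4.40 log2 with libraries left out singly, and was 3.30 log2 with its call lost (limma adjusted p = 0.05284) without isolated islet replicate 1 and day 60 replicate 1. Without both grafts numbered 1 it did not pass the filter. Those removals leave fewer samples, and the cause beyond that was not tested.

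Day 120 minus day 60 changed sign as single libraries were left out: -0.67 to 0.99 log2 for Beta-s, -0.68 to 0.98 for Hbb-b1, -0.65 to 1.00 for Hba-a1, -0.84 to 0.80 for Hba-a2 and -0.50 to 1.22 for Alas2. Hba-a2 was also 0.11 when scaled to the sum without insulin and haemoglobin genes, 0.13 with quantile normalization, 0.80 without isolated islet replicate 1 and day 60 replicate 1, and 0.03 without both grafts numbered 1.

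Over all genes, 4212 were called at day 120 against isolated islets, 1839 to 5516 with single libraries left out, and 7437 without isolated islet replicate 1 and day 60 replicate 1. For day 120 against day 60, 2 were called, 4 without the filter, 1 to 20 with single libraries left out, 1 without isolated islet replicate 1 and day 60 replicate 1, 0 without both grafts numbered 1 and 3 with the block on grafts alone. The cause was not tested. Of 493 list counts under alternatives, 379 stayed within 1.5 times the count reported and 114 did not. FPKM without counts leaves values near 0, such as those of Hbb-b2, without a known error.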
